A study of Mus musculus and Homo sapiens with 42 samples.

Results

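The response to depletion of CHD9 was compared between 2 human cancer cell lines, K562 and SNB19, to ask which genes answered in opposite directions, which answered in 1 line alone and which answered alike in both. K562 is a suspension line from chronic myelogenous leukaemia and SNB19 is an adherent line from glioblastoma multiforme. The comparison used every library of both lines, 12 of the 42 samples of the series. Each line carried a doxycycline-inducible hairpin against CHD9 (shRNA-CHD9#1 or shRNA-CHD9#2) or against luciferase (shRNA-Luc), the control, and all cultures received doxycycline at 1 µg/ml for 48 h, controls included. There were 2 libraries per hairpin and line, so that 4 shRNA-CHD9 libraries stood against 2 shRNA-Luc libraries in each line. The hairpins were delivered with pLKO-tet constructs, and the sources used here do not state that a hairpin was introduced more than once in a line, so an effect of depletion and a difference between cultures cannot be told apart. The labels do not say whether the libraries of a hairpin came from separate cultures, so p-values measure the spread between these libraries, which may be technical. With 1 line for each tumour type, differences describe K562 and SNB19 and cannot be told apart from other features of these lines, their media included.

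CHD9 belongs to the chromodomain helicase DNA-binding family, enzymes that use ATP to move nucleosomes and that carry paired chromodomains, which in other family members bind modified histone tails. It is grouped with CHD6, CHD7 and CHD8, of which CHD7 and CHD8 are known from developmental disorders. K562 cells carry the BCR-ABL1 fusion kinase and express a partial erythroid programme with embryonic and fetal globins, from which they can be pushed towards erythroid or megakaryocytic features. SNB19 cells express mesenchymal and glial genes, among them vimentin, nestin and collagens.

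Reads per gene were deposited as raw counts. A library held between 8109941 and 9033846 counts in K562 and between 9518169 and 10476231 in SNB19. Levels are given as CPM (the count of a gene relative to the total of its library, scaled between libraries by the TMM method), and a response is the log2 fold change of the 4 shRNA-CHD9 libraries against the 2 shRNA-Luc libraries of a line. Both responses and their difference, K562 minus SNB19, came from 1 fit of edgeR's quasi-likelihood model to the 12 libraries, with Benjamini-Hochberg adjustment over all 10671 genes that held enough counts for a test. A gene was called where the adjusted p was under 0.05 and the log2 value lay beyond 1 in either direction. Globins HBE1, HBG1 and HBG2 were high in every K562 library and held at most 0.115 CPM in SNB19, while SOX9 lay between 383 and 701 CPM in SNB19 and at 0 in K562, so the libraries matched their labelled lines. The summed level of the 9 lymphocyte markers listed, of 13, was 24.5 to 25.9 CPM in the K562 shRNA-Luc libraries and 44.6 to 54.2 CPM in the K562 shRNA-CHD9 libraries, and CD8A was at 0 in all of them, and their part in the K562 responses was not tested. In such bulk samples fewer cells of a type and less RNA per cell cannot be told apart. In 2 of the 6 hairpin groups the replicate libraries were an unequal pair: the chi-square per degree of freedom of their counts was 9.17 for K562 shRNA-Luc and 20.1 for SNB19 shRNA-CHD9#2, against 1.16 to 2.1 in the other groups. Between the K562 shRNA-Luc libraries the median log2 difference, replicate 1 minus replicate 2, was -0.13 for the 1762 genes with the shortest transcripts and 0.14 for the 1762 with the longest. In SNB19 shRNA-CHD9#2 the same medians were 0.16 and -0.11, and in the other 4 groups all such medians lay between -0.0048 and 0.032. These values do not show which library of a pair departed. Results that rest on them are given with all libraries and without 1 library of each unequal pair, K562 shRNA-Luc replicate 2 and SNB19 shRNA-CHD9#2 replicate 1, an alternative chosen after seeing the data, and leaving out the other library of a pair is given where it changes a count by much.

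CHD9 itself fell in both lines. K562 held 292 and 215 CPM with shRNA-Luc, 129 and 123 CPM with shRNA-CHD9#1 and 135 and 135 CPM with shRNA-CHD9#2. SNB19 held 711 and 724 CPM with shRNA-Luc, 288 and 276 CPM with shRNA-CHD9#1 and 243 and 376 CPM with shRNA-CHD9#2. Every shRNA-CHD9 library lay below every shRNA-Luc library of its line, a lack of overlap in 1 direction or the other that 48.9% of all genes tested had in K562 and 40% in SNB19. Relative to the mean of shRNA-Luc the level was between 48.4% and 53.4% in K562 and between 33.8% and 52.4% in SNB19. The log2 fold change was -0.96 (SE 0.15, adjusted p = 1.40e-04) in K562 and -1.28 (SE 0.15, adjusted p = 4.83e-05) in SNB19. The difference of the responses was 0.32 (SE 0.21, adjusted p = 0.350), with a 95% interval of -0.12 to 0.76, so a stronger depletion in SNB19 was not detectable here and equal depletion was not shown. With shRNA-CHD9#1 alone the difference was 0.35 with an adjusted p of 0.0468, past the threshold. With shRNA-CHD9#2 alone it was 0.31 with an adjusted p of 0.421, which did not pass. Without 1 library of each unequal pair, which left 1 K562 control, it was 0.035. The control level was higher in SNB19, so the depleted SNB19 libraries, at 243 to 376 CPM, still held about as much CHD9 as the K562 controls, at 215 to 292 CPM.

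**Figure D1:**
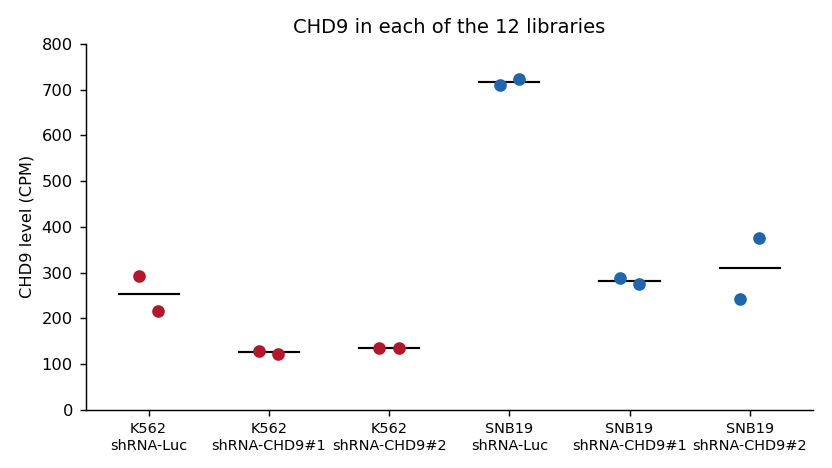
CHD9 level in CPM on the vertical axis for each library, grouped by line and hairpin on the horizontal axis. Points are libraries (K562 red, SNB19 blue) and black lines are the mean of the 2 libraries of a hairpin. All 4 shRNA-CHD9 libraries of a line sit below both of its shRNA-Luc libraries.

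CHD9 fell in both lines, though its log2 fold change in K562, -0.96, lay short of the size of 1 that a call needed. Within K562 980 genes rose (9.18%) and 352 fell (3.3%), while within SNB19 134 genes rose (1.26%) and 221 fell (2.07%). Of these, 63 genes were called in both lines, 31 in the same direction and 32 in opposite directions. They are 4.73% of the 1332 genes called in K562, to be read against the 1.26% and 2.07% of all genes called in SNB19. They are 17.7% of the 355 genes called in SNB19, to be read against the 9.18% and 3.3% of all genes called in K562. The overlap was not tested against these shares. Across the 7358 genes with at least 1 CPM in both lines, the responses of the lines had a Pearson correlation of 0.097 and a Spearman correlation of 0.17. This describes genes, which are not independent replicates, and the lines share no library. The calls within SNB19 leaned on its controls and were fewer when either SNB19 shRNA-Luc library was left out, which left 1 control. With shRNA-CHD9#1 alone they came to 625 against 355. The looser class of shared responses needs an adjusted p under 0.05 in both lines, any size, and no difference past the threshold. It held 963 genes with shRNA-CHD9#1 alone against 205 with both hairpins. For single hairpins the Pearson correlation between lines was 0.13 for shRNA-CHD9#1 with itself and 0.052 for shRNA-CHD9#2 with itself.

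The difference of the responses passed its test, beyond a log2 value of 1, for 600 genes with the higher response in K562 (5.62%) and for 211 genes with the lower response in K562 (1.98%), 811 in all (7.6%). At an adjusted p under 0.05 with any size of difference there were 1600 genes (15%), of which 703 were lower. The excess of genes higher in K562 went with the number of genes that held a count: 16675 to 17032 in the K562 shRNA-CHD9 libraries against 16002 and 16374 in K562 shRNA-Luc, and 15326 to 15876 in the SNB19 shRNA-CHD9 libraries against 16140 and 16442 in SNB19 shRNA-Luc, and its part in the result was not tested. Where a mean of at least 10 counts was required in each line, 442 genes were higher and 173 lower. Without K562 shRNA-Luc replicate 2 the calls were 425 higher and 155 lower, without SNB19 shRNA-Luc replicate 1 439 and 150, without SNB19 shRNA-Luc replicate 2 448 and 136, and without 1 library of each unequal pair 377 and 144. All of the 811 called genes kept the sign of the difference in the last of these, whose libraries were among those that chose the genes.

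The called genes fell into classes by their responses within each line at an adjusted p under 0.05. In 132 genes both lines responded and in opposite directions, 85 of them higher in K562 and lower in SNB19 (0.797%) and 47 the reverse (0.44%). In 435 genes with at least 1 CPM in both lines only the K562 response passed its test, 323 of them higher (3.03%) and 112 lower (1.05%). The counterpart in SNB19 had 60 genes, 23 higher (0.216%) and 37 lower (0.347%). A further 29 genes moved the same way in both lines by unequal amounts, 22 higher (0.206%) and 7 lower (0.0656%), and 23 differed although neither response passed (0.216%). No minimum level was set for the opposite genes, for those unequal in the same direction, or for those where neither response passed. The remaining called genes responded in 1 line alone and were under 1 CPM in at least 1 line. Of these, K562 responses from under 1 CPM in K562 itself numbered 37 higher (0.347%) and 3 lower (0.0281%), and SNB19 responses from under 1 CPM in SNB19 1 higher (0.00937%) and 8 lower (0.075%). Against these stood 205 genes that responded in the same direction in both lines with no difference past the threshold, 99 higher (0.928%) and 106 lower (0.993%). Missing the threshold for the difference does not show equal responses. The opposite and the shared classes leaned on the SNB19 controls. Opposite responses numbered 33 and 32 and shared responses 37 and 38 without SNB19 shRNA-Luc replicate 1 or 2, where SNB19 was left with 1 control library assumed to vary like the others. Without K562 shRNA-Luc replicate 2 there were 83 opposite and 114 shared responses, and without K562 shRNA-Luc replicate 1 there were 98 and 111. Shared responses came to 133 without SNB19 shRNA-CHD9#1 replicate 2 and to 375 without SNB19 shRNA-CHD9#2 replicate 2.

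**Figure D2:**
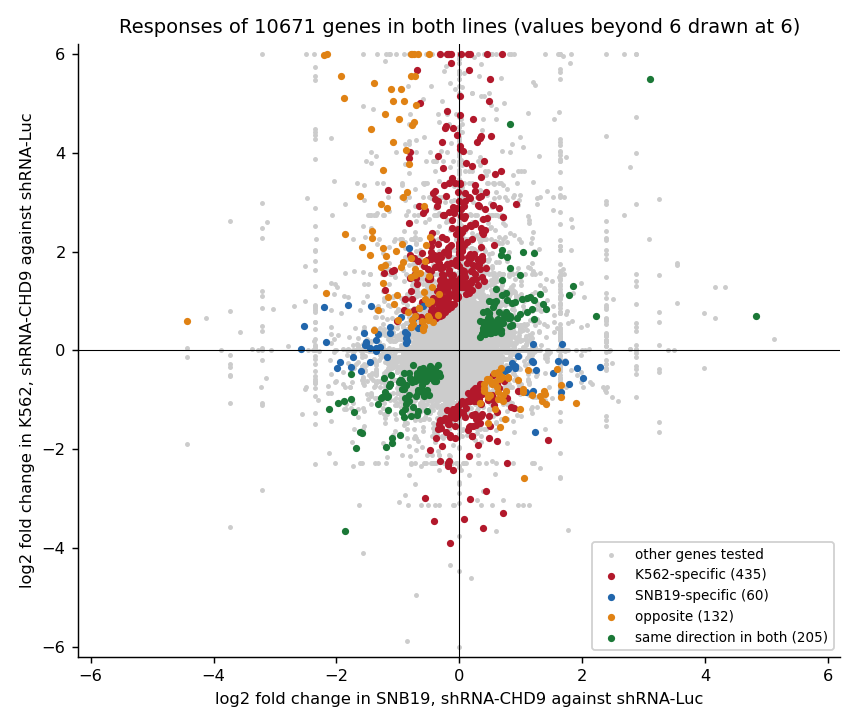
Each point is 1 of the 10671 genes tested, with its log2 fold change in SNB19 on the horizontal axis and in K562 on the vertical axis, and values beyond 6 are drawn at 6. K562-specific genes (435, red) spread along the vertical axis, SNB19-specific genes (60, blue) along the horizontal axis, opposite genes (132, orange) fill the upper left and lower right, and genes moving the same way in both lines (205, green) the other corners.

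The genes that rose in K562 and fell in SNB19 were led by ZNF521, CASC9, TCN1, KYNU and DTNA. Genes named by class, here and below, were required to have groups that did not overlap in each line called. Each hairpin alone also had to share the direction of the pooled response, so neither property is a finding. The transcription factor ZNF521, a zinc finger protein of haematopoietic and neural progenitors, held 15.5 and 16.2 CPM with shRNA-Luc, 88.3 and 88.6 CPM with shRNA-CHD9#1 and 71.8 and 74.9 CPM with shRNA-CHD9#2 in K562. In SNB19 it held 9.89 and 7.80 CPM with shRNA-Luc, 1.85 and 2.58 CPM with shRNA-CHD9#1 and 2.16 and 3.11 CPM with shRNA-CHD9#2. The CHD9 hairpin libraries lay above both controls in K562 and below both in SNB19, with log2 fold changes of 2.35 (SE 0.15, adjusted p = 4.14e-08) and -1.87 (SE 0.21, adjusted p = 4.38e-05) and a difference of 4.22 (SE 0.26, adjusted p = 4.81e-08). The lincRNA CASC9 stood at 0.105 to 0.205 CPM with shRNA-Luc and 6.18 to 7.67 CPM with the CHD9 hairpins in K562 and at 5.85 to 6.38 CPM with shRNA-Luc and 1.96 to 2.73 CPM with the CHD9 hairpins in SNB19. Its K562 ratio was 46.0-fold (exact 95% interval 15.6 to 224, 3 against 281 counts), an interval that like those below covers counting error only, and the difference of the responses had an adjusted p of 6.20e-08. TCN1, a vitamin B12-binding protein of granules and secretions, held 0.307 and 0.105 CPM with shRNA-Luc, 19.1 and 23.8 CPM with shRNA-CHD9#1 and 27.1 and 24.0 CPM with shRNA-CHD9#2 in K562. In SNB19 it held 10.6 and 10.6 CPM with shRNA-Luc, 1.09 and 1.52 CPM with shRNA-CHD9#1 and 3.64 and 3.22 CPM with shRNA-CHD9#2. With both hairpins TCN1 thus rose in K562 above the level of the SNB19 controls and fell in SNB19 below it, a K562 ratio of 113-fold (exact 95% interval 44.1 to 417, 4 against 923 counts) and a SNB19 log2 fold change of -2.16 (SE 0.32, adjusted p = 3.55e-04).

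KYNU, the kynureninase of tryptophan breakdown, had no count in either K562 shRNA-Luc library and 10.1 to 13.6 CPM in the shRNA-CHD9 libraries, at least 35.7-fold higher when the controls are set at 3 counts per library. In SNB19 it stood at 67.8 to 72.5 CPM with shRNA-Luc and 35.4 to 53.04 CPM with the CHD9 hairpins and fell by 0.67 on the log2 scale (adjusted p = 0.0175). DTNA, a dystrobrevin of the dystrophin-associated complex, was at 0.102 to 0.105 CPM with shRNA-Luc and 4.13 to 6.49 CPM with the CHD9 hairpins in K562, a ratio of 52.5-fold (exact 95% interval 14.4 to 437, 2 against 214 counts). In SNB19 DTNA stood at 110.2 to 115 CPM with shRNA-Luc and 63.1 to 81.0 CPM with the CHD9 hairpins, with a log2 fold change of -0.72 (SE 0.13, adjusted p = 0.00272). Over the 85 genes the median log2 fold change was 1.90 in K562 and -0.83 in SNB19, and the K562 median was 1.57 with the 12 genes that had no count in the K562 controls set at their bound. These values chose the class and are a description. The median control level was 3.17 CPM in K562 and 39.3 CPM in SNB19, against 16.3 and 20.6 CPM over the 9655 genes in no class. The class asks for a rise in K562 and a fall in SNB19, so control levels bore on the choice and are a description too. In 28 of the 85 genes both responses went beyond a log2 value of 1. Among those, chosen after their values were seen, were the Notch target HEY1 (3.13 in K562 and -1.62 in SNB19), the beta-3 integrin gene ITGB3 (2.41 and -1.42) and the cysteine protease gene CTSS (2.28 and -1.42). No minimum level was required of the 28, and some rest on few counts in K562. RASSF9 and NLGN4X, for example, had no count in the K562 controls and at most 0.720 and 0.805 CPM in any K562 library.

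**Figure D3:**
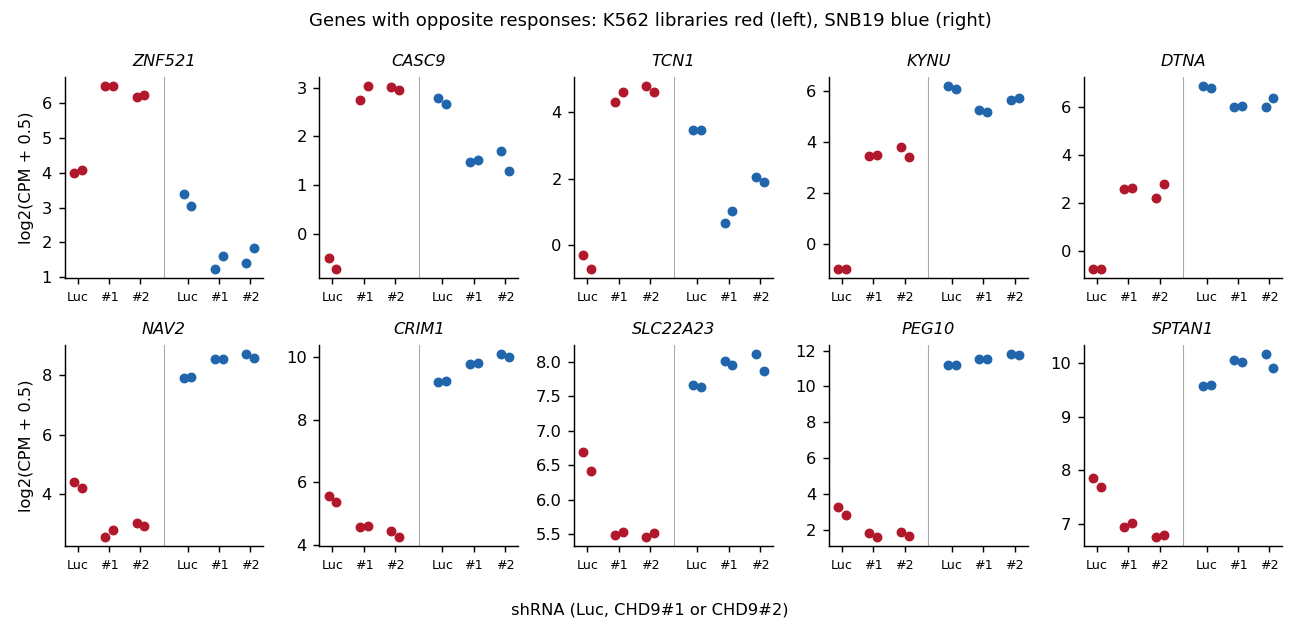
Level of 10 genes with opposite responses as log2(CPM + 0.5) on the vertical axes, 1 panel a gene, with each library a point. Within a panel K562 (red) is left of the grey line and SNB19 (blue) right of it, each ordered shRNA-Luc, shRNA-CHD9#1 and shRNA-CHD9#2. In the upper row (ZNF521, CASC9, TCN1, KYNU, DTNA) the CHD9 hairpins sit above the controls in K562 and below them in SNB19, and in the lower row (NAV2, CRIM1, SLC22A23, PEG10, SPTAN1) the reverse.

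In the reverse direction, NAV2, CRIM1, SLC22A23, PEG10 and SPTAN1 led. NAV2, a neuron navigator protein that associates with the cytoskeleton, held 20.9 and 18.0 CPM with shRNA-Luc, 5.35 and 6.48 CPM with shRNA-CHD9#1 and 7.65 and 7.17 CPM with shRNA-CHD9#2 in K562. In SNB19 it held 242 and 246 CPM with shRNA-Luc, 375 and 369 CPM with shRNA-CHD9#1 and 415 and 386 CPM with shRNA-CHD9#2. NAV2 thus fell in K562 by 1.54 on the log2 scale (SE 0.14) and rose in SNB19 by 0.67 (SE 0.11), a difference of -2.21 (SE 0.17, adjusted p = 4.36e-07). CRIM1, a transmembrane protein with cysteine-rich repeats that bind bone morphogenetic proteins, was at 40.7 to 46.4 CPM with shRNA-Luc and 18.3 to 23.4 CPM with the CHD9 hairpins in K562 and at 596 to 602 CPM with shRNA-Luc and 877 to 1089.9 CPM with the CHD9 hairpins in SNB19, a difference of -1.72 (SE 0.17, adjusted p = 5.23e-06). The transporter family member SLC22A23 was at 84.7 to 103 CPM with shRNA-Luc and 43.4 to 45.6 CPM with the CHD9 hairpins in K562 and at 198 to 202 CPM with shRNA-Luc and 233 to 276 CPM with the CHD9 hairpins in SNB19, a difference of -1.41 (SE 0.14, adjusted p = 7.40e-06). SPTAN1, the non-erythroid alpha spectrin of the membrane skeleton, was at 205 to 229.8 CPM with shRNA-Luc and 107 to 128 CPM with the CHD9 hairpins in K562 and at 759.8 to 770.4 CPM with shRNA-Luc and 966 to 1147 CPM with the CHD9 hairpins in SNB19, a difference of -1.36 (SE 0.14, adjusted p = 9.44e-06). PEG10, an imprinted gene derived from a retrotransposon, ran at very different levels in the lines, 6.64 to 9.00 CPM with shRNA-Luc and 2.48 to 3.12 CPM with the CHD9 hairpins in K562 and 2321 to 2386 CPM with shRNA-Luc and 2956 to 3546 CPM with the CHD9 hairpins in SNB19, with a difference of responses of -1.94 (SE 0.20, adjusted p = 8.81e-06). In all 5 genes the groups did not overlap in either line, which the naming rule required. Over the 47 genes the median log2 fold change was -0.82 in K562 and 0.67 in SNB19, smaller sizes than in the other opposite class. Beyond a log2 value of 1 in both lines were 4 of them: LBH (-1.06 in K562 and 1.89 in SNB19), SAMD11 (-1.03 and 1.35), DAPK2 (-1.09 and 1.41) and 1 for which GENCODE gave no symbol, all chosen after their values were seen.

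Responses that passed in K562 alone formed the largest class, and the genes that rose most clearly were low in the K562 controls and higher in SNB19. IL1RAP, the accessory chain of the interleukin-1 receptor, held 0.307 and 0.211 CPM with shRNA-Luc, 26.3 and 29.2 CPM with shRNA-CHD9#1 and 34.0 and 35.6 CPM with shRNA-CHD9#2 in K562, a ratio of 121-fold (exact 95% interval 51.7 to 373, 5 against 1231 counts). In SNB19 it stood at 159 to 166 CPM with shRNA-Luc and 114 to 155 CPM with the CHD9 hairpins, a log2 fold change of -0.19 (SE 0.14, adjusted p = 0.395) with an interval of -0.48 to 0.10. IL1RAP therefore remained below its SNB19 level even after the rise. The microtubule-binding gene EML1 showed the same layout, with 0.307 to 0.422 CPM with shRNA-Luc and 23.4 to 33.0 CPM with the CHD9 hairpins in K562, a ratio of 79.0-fold (exact 95% interval 38.2 to 197, 7 against 1126 counts), and 274 to 288 CPM with shRNA-Luc and 295 to 321 CPM with the CHD9 hairpins in SNB19. CASP4, an inflammatory caspase that senses bacterial lipopolysaccharide, held 2.15 and 1.79 CPM with shRNA-Luc, 38.6 and 40.4 CPM with shRNA-CHD9#1 and 38.4 and 37.8 CPM with shRNA-CHD9#2 in K562. Its SNB19 values were 55.0 to 57.2 CPM with shRNA-Luc and 63.2 to 80.4 CPM with the CHD9 hairpins, and the difference of responses was 3.95 (SE 0.23, adjusted p = 1.63e-08). The SNB19 log2 fold change of CASP4 was 0.34 (SE 0.11, adjusted p = 0.0701) with an interval of 0.096 to 0.58. There too every CHD9 hairpin library lay above both controls, and a response that did not pass its test is not thereby absent. P3H4, an endoplasmic reticulum protein of collagen modification, stood at 0.422 to 0.511 CPM with shRNA-Luc and 9.78 to 12.3 CPM with the CHD9 hairpins in K562, a ratio of 24.0-fold (exact 95% interval 12.5 to 52.7, 9 against 439 counts), and at 91.0 to 91.8 CPM with shRNA-Luc and 74.6 to 82.5 CPM with the CHD9 hairpins in SNB19. PCLO, a scaffold of the presynaptic active zone, stood at 0.307 to 0.632 CPM with shRNA-Luc and 24.9 to 40.2 CPM with the CHD9 hairpins in K562, a ratio of 67.2-fold (exact 95% interval 35.3 to 147, 9 against 1232 counts), and at 35.8 to 42.6 CPM with shRNA-Luc and 33.2 to 39.5 CPM with the CHD9 hairpins in SNB19. After depletion the PCLO libraries of K562 overlapped in level with those of SNB19. Over the 323 genes the median control level was 2.49 CPM in K562 and 19.9 CPM in SNB19, and the median of the shRNA-CHD9 libraries was 9.49 CPM in K562 and 18.5 CPM in SNB19.

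Genes that fell in K562, with a response in SNB19 that did not pass its test, were led by BIN1, FN1, MT-CO1 and PTK7. BIN1, an amphiphysin-family protein that shapes membranes, held 52.97 and 63.2 CPM with shRNA-Luc, 5.04 and 5.29 CPM with shRNA-CHD9#1 and 4.43 and 4.55 CPM with shRNA-CHD9#2 in K562. In SNB19 it held 60.3 and 56.2 CPM with shRNA-Luc, 62.0 and 71.2 CPM with shRNA-CHD9#1 and 97.5 and 74.6 CPM with shRNA-CHD9#2, a log2 fold change of 0.39 (SE 0.15, adjusted p = 0.112) with an interval of 0.067 to 0.71, and the difference of responses was -3.98 (SE 0.23, adjusted p = 4.38e-08). FN1, the extracellular matrix protein fibronectin, was at 790.2 to 1089 CPM with shRNA-Luc and 72.1 to 100.5 CPM with the CHD9 hairpins in K562 and at 1091 to 1105 CPM with shRNA-Luc and 769.5 to 864 CPM with the CHD9 hairpins in SNB19. The SNB19 value was -0.41 (SE 0.14, adjusted p = 0.0747) with an interval of -0.72 to -0.10, and there too every CHD9 hairpin library lay below both controls. The FN1 difference of -3.04 (SE 0.21, adjusted p = 1.37e-07) thus separated lines whose controls were at a like level. PTK7, a receptor pseudokinase of planar cell polarity, was at 243 to 246 CPM with shRNA-Luc and 83.2 to 90.2 CPM with the CHD9 hairpins in K562 and at 319 to 335 CPM with shRNA-Luc and 308 to 463 CPM with the CHD9 hairpins in SNB19, a difference of -1.77 (SE 0.19, adjusted p = 1.41e-05). MT-CO1, the mitochondrially encoded core subunit of cytochrome c oxidase, was at 1954 to 2103 CPM with shRNA-Luc and 966 to 1033 CPM with the CHD9 hairpins in K562 and at 2732 to 2791 CPM with shRNA-Luc and 2937 to 3223 CPM with the CHD9 hairpins in SNB19, a difference of -1.16 (SE 0.11, adjusted p = 3.71e-06). The 112 genes had a median control level of 16.98 CPM in K562 and 14.1 CPM in SNB19. APLNR, the apelin receptor, held 75.3 and 79.1 CPM with shRNA-Luc, 14.9 and 14.9 CPM with shRNA-CHD9#1 and 15.1 and 18.1 CPM with shRNA-CHD9#2 in K562, a log2 fold change of -2.29 (adjusted p = 1.45e-07). In SNB19 APLNR was at 0 in 5 of the 6 libraries and at 0.106 CPM in the other, so its response there could not be measured.

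**Figure D4:**
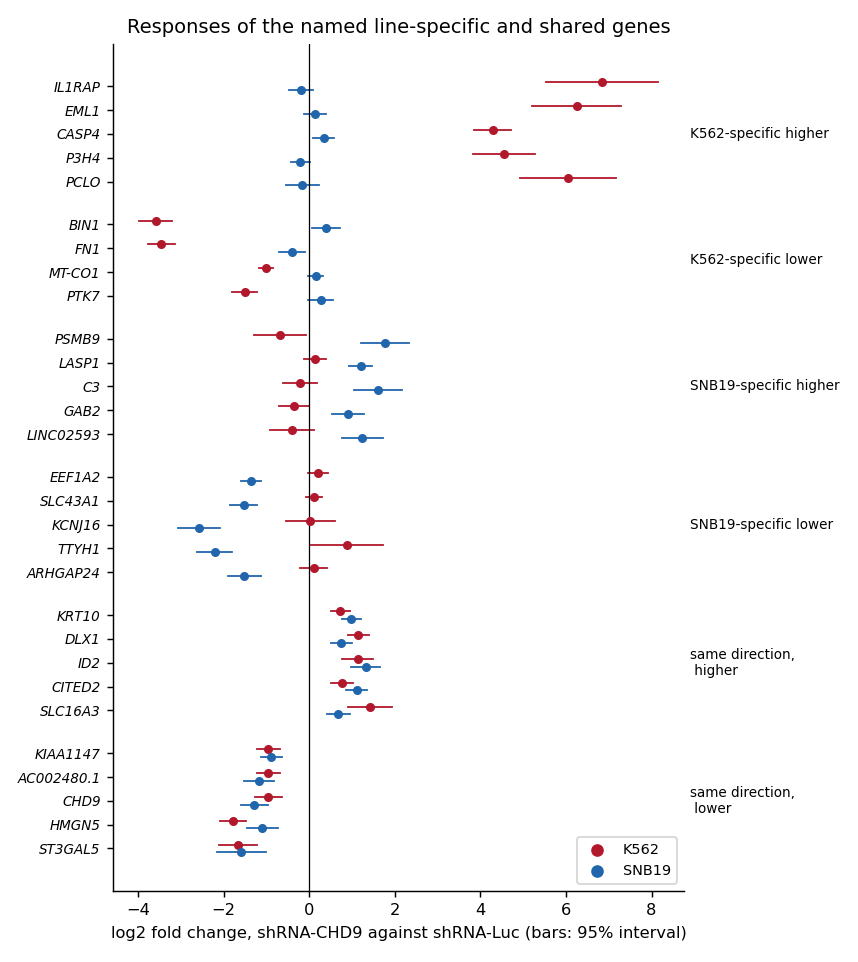
Log2 fold change of shRNA-CHD9 against shRNA-Luc on the horizontal axis for 29 genes on the vertical axis, K562 red and SNB19 blue, with bars for the 95% interval. From the top, named genes (4 or 5 in each group) of K562-specific higher and lower, SNB19-specific higher and lower, and the same direction in both, higher and lower. The red and blue points part in the first 4 groups and lie on the same side of 0 in the last 2.

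Fewer genes passed in SNB19 alone, and more of them fell than rose. A K562 response that did not pass its test is not thereby absent. Of the genes below, PSMB9 had a K562 log2 fold change of -0.69 (95% interval -1.30 to -0.085). GAB2 had one of -0.35 (95% interval -0.70 to -0.0083). For both, every CHD9 hairpin library of K562 lay below both controls. EEF1A2, a tissue-restricted translation elongation factor, held 162 and 159 CPM with shRNA-Luc, 60.8 and 63.1 CPM with shRNA-CHD9#1 and 73.4 and 52.5 CPM with shRNA-CHD9#2 in SNB19. In K562 it held 198 and 219.9 CPM with shRNA-Luc, 240.3 and 250.5 CPM with shRNA-CHD9#1 and 243 and 237 CPM with shRNA-CHD9#2, with a log2 fold change of 0.22 (SE 0.11, adjusted p = 0.159) and a difference of 1.58 (SE 0.16, adjusted p = 6.97e-06). The amino acid transporter gene SLC43A1 stood at 8.29 to 9.18 CPM with shRNA-Luc and 2.76 to 3.42 CPM with the CHD9 hairpins in SNB19 and at 156 to 168 CPM with shRNA-Luc and 169.6 to 179 CPM with the CHD9 hairpins in K562, a difference of 1.65 (SE 0.17, adjusted p = 9.44e-06). The potassium channel gene KCNJ16 stood at 11.2 to 12.6 CPM with shRNA-Luc and 1.52 to 2.76 CPM with the CHD9 hairpins in SNB19 and at 2.11 to 2.35 CPM with shRNA-Luc and 1.94 to 2.57 CPM with the CHD9 hairpins in K562, a difference of 2.59 (SE 0.35, adjusted p = 1.16e-04). TTYH1, a tweety-family membrane protein of neural tissue, was at 74.4 to 74.7 CPM with shRNA-Luc and 12.4 to 17.7 CPM with the CHD9 hairpins in SNB19, a log2 fold change of -2.21 (SE 0.19, adjusted p = 5.25e-06), and low in K562 at 1.05 to 1.33 CPM with shRNA-Luc and 1.41 to 3.46 CPM with the CHD9 hairpins. ARHGAP24, which inactivates Rac GTPases, was at 10.3 to 11.9 CPM with shRNA-Luc and 2.96 to 4.79 CPM with the CHD9 hairpins in SNB19 and at 25.7 to 27.3 CPM with shRNA-Luc and 26.8 to 29.3 CPM with the CHD9 hairpins in K562, a difference of 1.62 (SE 0.23, adjusted p = 2.14e-04). Among genes that rose, PSMB9, an immunoproteasome subunit, held 2.34 and 2.07 CPM with shRNA-Luc, 8.28 and 8.90 CPM with shRNA-CHD9#1 and 6.49 and 6.67 CPM with shRNA-CHD9#2 in SNB19 and 2.32 to 2.56 CPM with shRNA-Luc and 1.13 to 2.05 CPM with the CHD9 hairpins in K562, a difference of -2.47 (SE 0.39, adjusted p = 4.26e-04). LASP1, an actin-binding protein, held 454 and 444 CPM with shRNA-Luc, 1113 and 1120.0 CPM with shRNA-CHD9#1 and 1128 and 775 CPM with shRNA-CHD9#2 in SNB19, and the last of these libraries stood well below the others while still above both controls. In K562 LASP1 stood at 603 to 634 CPM with shRNA-Luc and 678 to 684 CPM with the CHD9 hairpins, and the difference was -1.07 (SE 0.18, adjusted p = 7.06e-04). The complement component C3 was at 3.72 to 4.94 CPM with shRNA-Luc and 10.3 to 16.6 CPM with the CHD9 hairpins in SNB19 and at 43.6 to 49.5 CPM with shRNA-Luc and 32.0 to 47.0 CPM with the CHD9 hairpins in K562, a difference of -1.82 (SE 0.32, adjusted p = 0.00104). The signalling adaptor GAB2 was at 53.1 to 54.1 CPM with shRNA-Luc and 81.3 to 115 CPM with the CHD9 hairpins in SNB19 and at 517 to 561 CPM with shRNA-Luc and 338 to 502 CPM with the CHD9 hairpins in K562, a difference of -1.26 (SE 0.24, adjusted p = 0.00206), and the lincRNA LINC02593 was at 5.21 to 7.001 CPM with shRNA-Luc and 10.4 to 17.6 CPM with the CHD9 hairpins in SNB19 and at 5.73 to 6.74 CPM with shRNA-Luc and 3.67 to 5.43 CPM with the CHD9 hairpins in K562, a difference of -1.64 (SE 0.33, adjusted p = 0.00330). Medians over the class were a log2 fold change of 1.204 for the 23 genes that rose and -1.36 for the 37 that fell. The 60 genes of this class became 26 and 27 without SNB19 shRNA-Luc replicate 1 or 2 and 95 without SNB19 shRNA-CHD9#2 replicate 2.

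For some genes the other line held too little RNA to show a response. In K562 with SNB19 under 1 CPM, 59 genes were higher (0.553%) and 13 lower (0.122%). The p53-induced lincRNA PURPL was at 0.511 to 0.527 CPM with shRNA-Luc and 15.3 to 21.4 CPM with the CHD9 hairpins in K562, a ratio of 33.8-fold (exact 95% interval 18.3 to 70.8, 10 against 688 counts), and at most 0.920 CPM in any SNB19 library. The neuropeptide gene NTS, which encodes neurotensin, held 0.920 and 1.16 CPM with shRNA-Luc, 138 and 134 CPM with shRNA-CHD9#1 and 72.9 and 66.9 CPM with shRNA-CHD9#2 in K562, with hairpin libraries far above the controls, and at most 0.918 CPM in SNB19. The zinc finger gene ZFP69 stood at 0 to 0.211 CPM with shRNA-Luc and 5.76 to 8.21 CPM with the CHD9 hairpins in K562, a ratio of 64.8-fold (exact 95% interval 17.8 to 538, 2 against 264 counts). In SNB19 with K562 under 1 CPM, 1 gene was higher (0.00937%), IGFBP6, and 10 were lower (0.0937%). IGFBP6, which binds insulin-like growth factors, was at 34.0 to 34.0 CPM with shRNA-Luc and 79.0 to 98.5 CPM with the CHD9 hairpins in SNB19. PLN, phospholamban, the inhibitor of the SERCA calcium pump, held 25.3 and 23.3 CPM with shRNA-Luc, 2.29 and 1.17 CPM with shRNA-CHD9#1 and 1.94 and 2.76 CPM with shRNA-CHD9#2 in SNB19, a log2 fold change of -3.56 (SE 0.24, adjusted p = 2.62e-07), and at most 0.324 CPM in K562. LRRIQ1 was at 1.91 to 2.30 CPM with shRNA-Luc and 0.114 to 0.351 CPM with the CHD9 hairpins in SNB19.

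Shared responses were of moderate size, with a median log2 fold change of 0.64 in K562 and 0.62 in SNB19 for the 99 genes that rose and of -0.64 and -0.73 for the 106 that fell. ID2, an inhibitor of basic helix-loop-helix transcription factors, held 30.2 and 27.6 CPM with shRNA-Luc, 71.5 and 72.6 CPM with shRNA-CHD9#1 and 56.2 and 53.5 CPM with shRNA-CHD9#2 in K562. In SNB19 it held 84.4 and 84.7 CPM with shRNA-Luc, 202 and 203 CPM with shRNA-CHD9#1 and 269.6 and 169.7 CPM with shRNA-CHD9#2. All hairpin libraries lay above the controls of their line, which the naming rule required. The log2 fold changes were 1.13 (SE 0.17, adjusted p = 2.10e-04) and 1.32 (SE 0.16, adjusted p = 1.73e-04), and the difference had a 95% interval of -0.69 to 0.32. The homeobox gene DLX1 rose by 1.15 in K562 and 0.75 in SNB19 on the log2 scale, CITED2, a coregulator that binds CBP and p300, by 0.78 and 1.11, and KRT10, an intermediate filament gene, by 0.73 and 0.99. SLC16A3, the lactate exporter MCT4, was at 1.84 to 2.85 CPM with shRNA-Luc and 6.04 to 6.69 CPM with the CHD9 hairpins in K562 and at 211 to 216 CPM with shRNA-Luc and 273 to 375 CPM with the CHD9 hairpins in SNB19. Beside CHD9, the genes that fell in both lines were led by HMGN5, ST3GAL5, KIAA1147 and AC002480.1. HMGN5, a nucleosome-binding protein, held 113 and 125 CPM with shRNA-Luc, 30.2 and 28.4 CPM with shRNA-CHD9#1 and 42.0 and 38.5 CPM with shRNA-CHD9#2 in K562. In SNB19 HMGN5 was at 14.7 to 14.9 CPM with shRNA-Luc and 6.64 to 7.14 CPM with the CHD9 hairpins, and the difference of the responses was -0.68 (SE 0.22, adjusted p = 0.0506), close to the threshold. ST3GAL5, the sialyltransferase that makes the ganglioside GM3, was at 62.5 to 64.4 CPM with shRNA-Luc and 14.8 to 24.4 CPM with the CHD9 hairpins in K562 and at 11.5 to 12.4 CPM with shRNA-Luc and 2.53 to 5.39 CPM with the CHD9 hairpins in SNB19. KIAA1147 had log2 fold changes of -0.95 in K562 and -0.88 in SNB19, and AC002480.1 of -0.95 and -1.17. AC002480.1 is annotated as an antisense RNA, and whether the counting used strand is not given in the sources used here, so its reads cannot be told apart from those of a gene on the other strand.

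Gene groups were described by the members that could be tested, and a member counts as higher or lower, or as having risen or fallen, at an adjusted p under 0.05 with any size. At that rule 17.1% of all genes rose and 12.4% fell in K562, and 5.74% rose and 5.63% fell in SNB19. The tables held 48.9% of the annotated protein-coding genes by symbol, so each group is covered in part. In ribosomal protein genes the response was lower in K562 than in SNB19 in 32 of 42 genes, against 6.59% lower and 8.41% higher among all genes tested and 9.24% lower and 10.4% higher among all 7358 genes with at least 1 CPM in both lines. Their median log2 fold change was -0.17 in K562 and 0.35 in SNB19, against 0.0115 and 0 over all genes tested, and the median difference was -0.51 against 0.050. Of the 42 genes 24 rose in SNB19 and 5 fell in K562. RPS6, of the small subunit, held 1314 and 1621 CPM with shRNA-Luc, 1083 and 983 CPM with shRNA-CHD9#1 and 1161 and 996 CPM with shRNA-CHD9#2 in K562. Its SNB19 libraries held 742 and 744 CPM with shRNA-Luc, 997 and 1014 CPM with shRNA-CHD9#1 and 981 and 942 CPM with shRNA-CHD9#2, and the difference was -0.88 (SE 0.14, adjusted p = 5.09e-04). RPL28 had a difference of -0.77 (SE 0.13, adjusted p = 7.44e-04) and RPS4X of -0.62 (SE 0.13, adjusted p = 0.00389). All differences were under a log2 value of 1, and ribosomal protein genes have processed pseudogenes that can share reads. The group has short transcripts, with a median length of the longest annotated transcript of 1938.5 bases, and genes with short transcripts were lower in K562 shRNA-Luc replicate 1 than in replicate 2. Their part in the difference was not tested beyond leaving these libraries out. Without K562 shRNA-Luc replicate 2 the difference passed in 4 of 42 genes with a median of -0.42, without K562 shRNA-Luc replicate 1 in 33 with a median of -0.62, without SNB19 shRNA-Luc replicate 1 in 9 and without its replicate 2 in 14, and without 1 library of each unequal pair in 7 with a median of -0.37. The rises in SNB19 no longer passed when either SNB19 shRNA-Luc library was left out, which left 1 control there. The median SNB19 response of the 42 genes was 0.31 without its replicate 1 and 0.36 without its replicate 2. Without SNB19 shRNA-CHD9#2 replicate 2, 37 of the 42 genes rose.

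Oxidative phosphorylation genes encode subunits of the respiratory chain and ATP synthase. The response was lower in K562 in 15 of 42, with medians of -0.21 in K562 and 0.20 in SNB19. NDUFB8, of complex I, was at 8.28 to 12.2 CPM with shRNA-Luc and 5.62 to 6.01 CPM with the CHD9 hairpins in K562 and at 6.17 to 6.31 CPM with shRNA-Luc and 7.36 to 8.61 CPM with the CHD9 hairpins in SNB19, a difference of -1.16 (SE 0.26, adjusted p = 0.00643). ATP5F1C, of ATP synthase, differed by -0.65 (SE 0.16, adjusted p = 0.0118) and NDUFS6 by -0.68 (SE 0.18, adjusted p = 0.0178). These too are short transcripts, with a median of 1413.5 bases, and edgeR's test passed in 18 of them without K562 shRNA-Luc replicate 1 but in 0 without K562 shRNA-Luc replicate 2 and in 0 without 1 library of each unequal pair, where 12 and 11 had an unadjusted p under 0.05. The median difference was then -0.28 and -0.21. When either SNB19 shRNA-Luc library was left out 1 gene passed, and without SNB19 shRNA-CHD9#2 replicate 2 24 did.

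In cholesterol synthesis genes the response was lower in K562 in 7 of 14 and higher in 1, with medians of -0.26 in K562 and 0.37 in SNB19, and 7 fell in K562 while 5 rose in SNB19. MVD, the mevalonate diphosphate decarboxylase, held 238 and 298 CPM with shRNA-Luc, 139 and 144 CPM with shRNA-CHD9#1 and 161 and 162 CPM with shRNA-CHD9#2 in K562. In SNB19 it held 59.8 and 65.4 CPM with shRNA-Luc, 119.8 and 129.7 CPM with shRNA-CHD9#1 and 103 and 71.5 CPM with shRNA-CHD9#2. The MVD libraries did not overlap between groups in either line, and the difference was -1.58 (SE 0.25, adjusted p = 4.91e-04). IDI1, the isopentenyl diphosphate isomerase, was at 171 to 187 CPM with shRNA-Luc and 117 to 139 CPM with the CHD9 hairpins in K562 and at 45.9 to 46.7 CPM with shRNA-Luc and 64.2 to 86.8 CPM with the CHD9 hairpins in SNB19, a difference of -1.32 (SE 0.18, adjusted p = 1.17e-04). INSIG1, which holds back the activation of SREBP, had opposite responses like MVD and IDI1, with -1.23 (SE 0.22, adjusted p = 0.00153), and was chosen after its values were seen. The count that fell in K562 was 0 in edgeR's test without K562 shRNA-Luc replicate 2 and 0 without 1 library of each unequal pair, where 6 had an unadjusted p under 0.05 in both cases, and 4 without K562 shRNA-Luc replicate 1, while the count that rose in SNB19 was 1 when either SNB19 shRNA-Luc library was left out. Lower responses numbered 4 of 14 when either SNB19 shRNA-Luc library was left out, 4 without K562 shRNA-Luc replicate 2, and also 4 without 1 library of each unequal pair, with a median difference of -0.53 in the latter. In the G2 and M phase list the response was lower in K562 in 4 of 14 genes, with medians of -0.19 in K562 and 0.13 in SNB19. KIF20A, a mitotic kinesin, was at 187 to 212 CPM with shRNA-Luc and 149 to 183 CPM with the CHD9 hairpins in K562 and at 339 to 339 CPM with shRNA-Luc and 463 to 539 CPM with the CHD9 hairpins in SNB19, a difference of -0.87 (SE 0.15, adjusted p = 8.15e-04). Cyclin A2 (CCNA2) differed by -0.54 (SE 0.11, adjusted p = 0.00415) and the mitotic kinase PLK1 by -0.68 (SE 0.15, adjusted p = 0.00577), and of the 12 S phase genes 2 were lower in K562, TYMS at -0.68 (SE 0.16, adjusted p = 0.0110) and CDT1 at -0.70 (SE 0.22, adjusted p = 0.0421). No S phase gene passed in edgeR's test without K562 shRNA-Luc replicate 2 or when either SNB19 shRNA-Luc library was left out, where 3 were lower at an unadjusted p under 0.05 in each case.

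**Figure D5:**
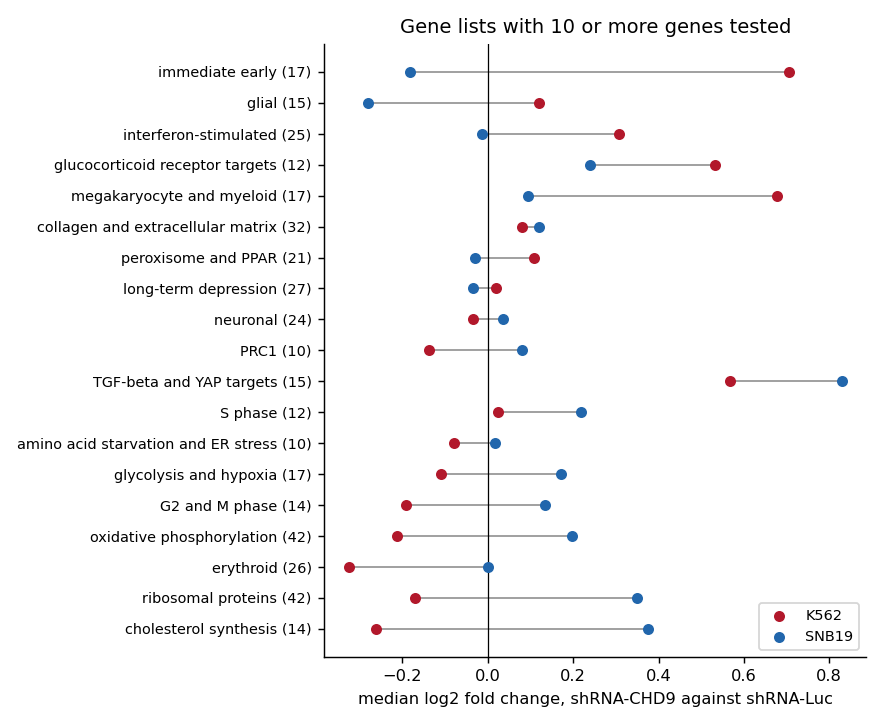
Median log2 fold change of shRNA-CHD9 against shRNA-Luc on the horizontal axis for 19 gene lists with 10 or more genes tested, K562 red and SNB19 blue, with the number of genes tested in brackets. The lists are ordered by the median difference of the responses: ribosomal protein and cholesterol synthesis genes lie lowest, with K562 left of SNB19, and immediate early genes highest, with K562 right of SNB19.

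Of 25 interferon-stimulated genes tested the response was higher in K562 in 8 and lower in 1, 8 rose and 3 fell within K562, with medians of 0.31 in K562 and -0.014 in SNB19. IFITM2, a membrane protein that restricts virus entry, held 23.4 and 20.8 CPM with shRNA-Luc, 95.9 and 94.5 CPM with shRNA-CHD9#1 and 95.6 and 102 CPM with shRNA-CHD9#2 in K562. Its SNB19 libraries stood at 11.5 to 14.0 CPM with shRNA-Luc and 10.7 to 14.98 CPM with the CHD9 hairpins, and the difference was 2.13 (SE 0.21, adjusted p = 5.23e-06). PARP9, an ADP-ribosyltransferase of the interferon response, was at 2.95 to 3.07 CPM with shRNA-Luc and 9.50 to 15.2 CPM with the CHD9 hairpins in K562 and at 172 to 175 CPM with shRNA-Luc and 156 to 202 CPM with the CHD9 hairpins in SNB19, a difference of 1.95 (SE 0.27, adjusted p = 1.11e-04). The exception was IRF1, an interferon regulatory transcription factor, which stood at 34.0 to 35.0 CPM with shRNA-Luc and 19.1 to 26.4 CPM with the CHD9 hairpins in K562 and at 44.2 to 46.5 CPM with shRNA-Luc and 79.6 to 96.3 CPM with the CHD9 hairpins in SNB19, a difference of -1.55 (SE 0.19, adjusted p = 5.01e-05). Higher responses numbered 4 without K562 shRNA-Luc replicate 2, 5 when either SNB19 shRNA-Luc library was left out and 4 without 1 library of each unequal pair. Immediate early genes, which growth signals switch on within minutes, were higher in K562 in 5 of 17, with medians of 0.70 in K562 and -0.18 in SNB19. PHLDA1 held 11.6 and 12.6 CPM with shRNA-Luc, 113 and 124 CPM with shRNA-CHD9#1 and 43.0 and 45.5 CPM with shRNA-CHD9#2 in K562, so that shRNA-CHD9#1 stood well above shRNA-CHD9#2 and both above the controls. In SNB19 PHLDA1 was at 669 to 678 CPM with shRNA-Luc and 439.6 to 648 CPM with the CHD9 hairpins, and the difference was 3.01 (SE 0.50, adjusted p = 7.90e-04). The nuclear receptor gene NR4A1 was at 16.9 to 18.1 CPM with shRNA-Luc and 22.2 to 52.1 CPM with the CHD9 hairpins in K562 and at 9.68 to 9.99 CPM with shRNA-Luc and 4.21 to 7.63 CPM with the CHD9 hairpins in SNB19, a difference of 1.94 (SE 0.48, adjusted p = 0.0133), and IER3 differed by 1.81 (SE 0.47, adjusted p = 0.0182). Of the immediate early genes 3 passed without K562 shRNA-Luc replicate 1, 2 without its replicate 2, 1 when either SNB19 shRNA-Luc library was left out and 1 without 1 library of each unequal pair, while 11 passed with shRNA-CHD9#1 alone.

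Lineage genes of K562 were described by an erythroid and by a megakaryocyte and myeloid list. In the erythroid list 26 genes were tested, 10 fell and 3 rose in K562, and 1 rose in SNB19, where 8 of the 26 had no count in any library. Ferrochelatase (FECH), the last enzyme of haem synthesis, was at 244 to 245 CPM with shRNA-Luc and 109.7 to 139.8 CPM with the CHD9 hairpins in K562 and at 58.8 to 59.5 CPM with shRNA-Luc and 48.7 to 59.3 CPM with the CHD9 hairpins in SNB19, a difference of -0.87 (SE 0.16, adjusted p = 0.00188), and the mitochondrial iron importer SLC25A37 differed by -0.65 (SE 0.13, adjusted p = 0.00320). ANK1, the erythroid ankyrin, also had a lower response in K562 but through a rise in SNB19, at 22.3 to 25.2 CPM with shRNA-Luc and 44.0 to 105 CPM with the CHD9 hairpins there against 674 to 856 CPM with shRNA-Luc and 769.6 to 922 CPM with the CHD9 hairpins in K562. In all the response was higher in K562 in 1 gene and lower in 5, and lower in 3 without K562 shRNA-Luc replicate 1, without its replicate 2, or without SNB19 shRNA-CHD9#2 replicate 1, and in 2 when either SNB19 shRNA-Luc library was left out. Of the 8 genes with no count in SNB19, 5 fell in K562. Of these, the glycophorin gene GYPE, chosen after its values were seen, held 198 and 204 CPM with shRNA-Luc, 34.4 and 32.2 CPM with shRNA-CHD9#1 and 30.3 and 30.0 CPM with shRNA-CHD9#2. Glycophorin and globin genes have near-identical copies, so their counts are uncertain. In the megakaryocyte and myeloid list 7 of 17 rose and 2 fell in K562, 2 rose and 2 fell in SNB19, and the response was higher in K562 in 4 and lower in 1. Those that rose in K562 were 4 without K562 shRNA-Luc replicate 1 and 4 without 1 library of each unequal pair, and the median difference was 0.27 but -0.53 with shRNA-CHD9#1 alone. LCP1, the actin-bundling protein of leukocytes, held 117 and 109.7 CPM with shRNA-Luc, 653 and 659 CPM with shRNA-CHD9#1 and 617 and 589 CPM with shRNA-CHD9#2 in K562 and 23.1 to 23.8 CPM with shRNA-Luc and 21.6 to 27.8 CPM with the CHD9 hairpins in SNB19, a difference of 2.38 (SE 0.15, adjusted p = 7.65e-08). SRGN, the proteoglycan of haematopoietic granules, was at 0.105 to 0.205 CPM with shRNA-Luc and 30.1 to 38.5 CPM with the CHD9 hairpins in K562, a ratio of 214-fold (exact 95% interval 73.1 to 1039.6, 3 against 1308 counts), and at most 0.455 CPM in SNB19.

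Collagen and extracellular matrix genes had unequal responses in both directions, the response being higher in K562 in 5 and lower in 9 of 32 tested. Within the lines 6 rose and 10 fell in K562, and 7 rose and 4 fell in SNB19, where 1 rose in edgeR's test when either SNB19 shRNA-Luc library was left out. COL6A3, a chain of collagen VI, held 11.1 and 10.7 CPM with shRNA-Luc, 118 and 126 CPM with shRNA-CHD9#1 and 122 and 131 CPM with shRNA-CHD9#2 in K562 and 8.93 to 9.41 CPM with shRNA-Luc and 9.48 to 14.3 CPM with the CHD9 hairpins in SNB19, a difference of 3.16 (SE 0.21, adjusted p = 1.03e-07). SERPINE2, a secreted protease inhibitor, was at 2.86 to 3.27 CPM with shRNA-Luc and 25.9 to 38.8 CPM with the CHD9 hairpins in K562 and at 248 to 254 CPM with shRNA-Luc and 207 to 252 CPM with the CHD9 hairpins in SNB19, a difference of 3.46 (SE 0.28, adjusted p = 2.86e-07). The list of TGF-beta and YAP targets had medians above 0 in both lines, 0.57 in K562 and 0.83 in SNB19, with 4 of 15 genes that rose in K562 and 8 in SNB19. With shRNA-CHD9#2 alone the K562 median was 0 and with shRNA-CHD9#1 alone 0.79, and the genes that rose were 2 in K562 without K562 shRNA-Luc replicate 1 and 3 in SNB19 when either SNB19 shRNA-Luc library was left out. Against that direction SMAD6, an inhibitor of BMP signalling, fell in K562 and rose in SNB19, at 28.0 to 32.2 CPM with shRNA-Luc and 12.9 to 24.8 CPM with the CHD9 hairpins and at 20.1 to 22.3 CPM with shRNA-Luc and 47.8 to 75.1 CPM with the CHD9 hairpins, a difference of -2.34 (SE 0.35, adjusted p = 3.05e-04). The smooth muscle actin-binding gene TAGLN did likewise with -1.81 (SE 0.33, adjusted p = 0.00161), whereas the receptor TGFBR2 was higher in K562, with a ratio of 12.5-fold (exact 95% interval 6.88 to 25.3, 11 against 280 counts) there and 0.68 (SE 0.23, adjusted p = 0.0777) in SNB19. Of 8 p53 targets, 3 rose and 1 fell in K562 and 4 rose in SNB19, and 1 rose in K562 without K562 shRNA-Luc replicate 2 and 1 in SNB19 when either SNB19 shRNA-Luc library was left out. The cyclin-dependent kinase inhibitor CDKN1A held 40.4 and 41.9 CPM with shRNA-Luc, 195 and 206 CPM with shRNA-CHD9#1 and 126 and 129 CPM with shRNA-CHD9#2 in K562 and 260.4 and 255 CPM with shRNA-Luc, 683 and 680.0 CPM with shRNA-CHD9#1 and 400.2 and 344 CPM with shRNA-CHD9#2 in SNB19. CDKN1A therefore rose in both lines and more with shRNA-CHD9#1 than with shRNA-CHD9#2, and the difference of 0.96 (SE 0.37, adjusted p = 0.0941) did not pass. DDB2, a DNA damage sensor, had opposite responses with -1.03 (SE 0.18, adjusted p = 0.00112), and FAS, the death receptor, was higher in K562 with a ratio of 6.88-fold (exact 95% interval 2.20 to 34.7, 3 against 42 counts).

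In the remaining lists the lines differed in a few members, to be read against the 8.41% of all genes tested with a higher and the 6.59% with a lower response in K562. Long-term depression genes, a signalling list, had 5 of 27 higher and 3 lower in K562, among them phospholipase A2 (PLA2G4A) with 1.16 (SE 0.24, adjusted p = 0.00231) in K562 and -2.16 (SE 0.33, adjusted p = 4.74e-04) in SNB19 and phospholipase C beta 4 (PLCB4) with a difference of 1.38 (SE 0.28, adjusted p = 0.00318). Of 12 glucocorticoid receptor targets 2 were higher and 1 lower in K562: PDK4, which inhibits pyruvate dehydrogenase, was at 0.307 to 0.422 CPM with shRNA-Luc and 7.17 to 9.40 CPM with the CHD9 hairpins in K562 and at 5.28 to 6.38 CPM with shRNA-Luc and 1.37 to 3.16 CPM with the CHD9 hairpins in SNB19, a difference of 5.92 (SE 0.60, adjusted p = 6.58e-07), MT2A, a metallothionein, had a ratio of 14.3-fold (exact 95% interval 8.43 to 26.4, 14 against 408 counts) in K562, and TIPARP differed by -0.87 (SE 0.16, adjusted p = 0.00198). Of 17 glycolysis and hypoxia genes 1 was higher and 3 lower in K562, PFKFB4 at -1.03 (SE 0.24, adjusted p = 0.00881), BNIP3 at -1.10 (SE 0.26, adjusted p = 0.00913) and P4HA1 at -0.67 (SE 0.19, adjusted p = 0.0230). Of 21 peroxisome and PPAR genes 3 were higher and 1 lower, with ACSL4 at 0.66 (SE 0.12, adjusted p = 0.00166), PPARA at 0.69 (SE 0.19, adjusted p = 0.0214) and RXRA at -0.82 (SE 0.20, adjusted p = 0.0110). Of 24 neuronal genes 1 was higher and 5 lower, with the synaptic vesicle gene SYT1 at a K562 ratio of 13.8-fold (exact 95% interval 6.22 to 38.2, 6 against 169 counts) and the vesicle fusion gene VAMP2 at -0.65 (SE 0.13, adjusted p = 0.00296), and of 15 glial genes 2 were higher and 1 lower, with SOX4 at 0.62 (SE 0.16, adjusted p = 0.0147) and NFIB, which fell in both lines, at -1.13 (SE 0.19, adjusted p = 7.92e-04). Of 10 genes of amino acid starvation and endoplasmic reticulum stress 1 was higher and 1 lower, TRIB3 at 0.96 (SE 0.20, adjusted p = 0.00435) and DDIT4 at -0.57 (SE 0.18, adjusted p = 0.0427). These small counts moved with single libraries. Without K562 shRNA-Luc replicate 2, 3 long-term depression genes were higher, 1 glucocorticoid receptor target, 1 peroxisome and PPAR gene and 1 glial gene, and 1 glycolysis and hypoxia gene was lower. Without SNB19 shRNA-Luc replicate 2 the genes higher in K562 were 2 of the long-term depression list, 1 glucocorticoid receptor target, 1 peroxisome and PPAR gene and 1 glial gene, and 1 glycolysis and hypoxia gene was lower. Without 1 library of each unequal pair 2 long-term depression genes, 1 glucocorticoid receptor target and 1 peroxisome and PPAR gene were higher, and no glial gene was higher and no glycolysis and hypoxia gene passed in edgeR's test, where 3 glial genes were higher and 3 glycolysis and hypoxia genes lower at an unadjusted p under 0.05. For the 6 NF-kB and chemokine genes the median difference was 0.17, and for the 2 epithelial genes 0.38. CLDN4 of the epithelial list was split between hairpins in SNB19, at 47.6 and 49.2 CPM with shRNA-Luc, 87.8 and 82.5 CPM with shRNA-CHD9#1 and 23.8 and 20.5 CPM with shRNA-CHD9#2.

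Other chromatin regulators were measured for CHD and Polycomb genes. Beside CHD9, 4 CHD genes were tested, and CHD6 had a log2 fold change of -0.14 (SE 0.16, adjusted p = 0.547) in K562 and -0.50 (SE 0.16, adjusted p = 0.0547) in SNB19. The differences of the responses were 0.18 for CHD1, 0.092 for CHD2, 0.70 for CHD5 and 0.36 for CHD6, and those of CHD1 and CHD2 turned negative without 1 library of each unequal pair. In Polycomb repressive complex 1, 2 of 10 genes had a lower response in K562, CBX8 with -0.73 (SE 0.19, adjusted p = 0.0173) and SCMH1 with -0.55 (SE 0.15, adjusted p = 0.0200). In Polycomb repressive complex 2, JARID2 was lower in K562 with -0.78 (SE 0.23, adjusted p = 0.0329), and EZH2, the methyltransferase, had a difference of -0.34 (SE 0.13, adjusted p = 0.0953), which did not pass. JARID2 did not pass without K562 shRNA-Luc replicate 1 or 2 or without SNB19 shRNA-Luc replicate 1 or 2, nor without K562 shRNA-CHD9#1 replicate 2 or SNB19 shRNA-CHD9#1 replicate 1 or 2, and CBX8 and SCMH1 did not without SNB19 shRNA-Luc replicate 2.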

How the data were processed

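RNA from K562 and SNB19 cells was sequenced by the authors, who aligned the reads with TopHat2 (2.1) and counted reads per gene with HTSeq (0.5.3). The deposited values are raw read counts per Ensembl gene, 1 table per cell line, and whether the counting used strand is not given in the sources used here. The tables were joined by Ensembl identifier (29828 genes, of which 26481 held a count in the 12 libraries). GENCODE 29 gave symbols for 94.9% of the genes tested, gene types, chromosomes and the length of the longest transcript. Its build differs from that of the authors, so no coordinates were taken.

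The 12 libraries were fitted together in edgeR 4.0.16 (R 4.3.3, limma 3.58.1) as 4 groups, line by arm, with TMM scaling, filterByExpr and the quasi-likelihood F-test, which left 10671 genes and 8 residual degrees of freedom. Total counts per library ranged from 8109941 to 10476231. The common biological coefficient of variation was 0.121. The contrasts were shRNA-CHD9 against shRNA-Luc in each line and the difference of both, two-sided, with Benjamini-Hochberg adjustment. Both hairpins of a line were compared with the same shRNA-Luc libraries. Standard errors and 95% intervals are Wald values. Where a group held no count, a ratio was bounded with 3 counts per library, and where it held few, the ratio of summed counts is given with an exact interval for counting error. The fit was tested on simulated counts.

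Named genes were the CHD family, APLNR and BIN1, 5 genes of each class with the smallest p, 3 more where the other line was under 1 CPM, and the 3 members of each gene list with the smallest p of the difference. The class genes, those under 1 CPM included, were first limited to genes with a symbol and with each hairpin alone in the pooled direction. Their shRNA-CHD9 and shRNA-Luc libraries also had to be without overlap in each line called. Classes and lists were chosen with earlier results of these data known. Alternatives were DESeq2 size factors, TMM within each line, the DESeq2 1.42.0 Wald test, no filter or a stricter one, hairpins apart, each line fitted alone, the experiment number as a block, no fold threshold, and leaving out each library. Genes of the Y chromosome and XIST were left out of the named genes, and some genes that the rule names are not reported here.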

Additional observations from a re-analysis of the deposited data

Results flagged for a closer look

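Responses that differed between the lines by the test of the difference were marked first. They are the 600 genes with the higher response in K562, the 211 with the lower response, the 132 with opposite responses, and 87 of the 115 named genes at an adjusted p under 0.05. Of all genes tested 15% passed at that adjusted p. Most named genes were chosen by the p of the difference, so the 87 were largely fixed beforehand and are no separate support. Among opposite responses with K562 higher, the fitted log2 difference was 4.22 for ZNF521, 6.8 for CASC9, 8.89 for TCN1 and 6.26 for DTNA, of which the last 3 rest on 2 to 4 counts in the K562 controls and depend on the prior count of the fit. KYNU, with no count in the K562 controls, was at least 35.7-fold higher there with the CHD9 hairpins. With K562 lower, the log2 difference was -2.21 for NAV2, -1.94 for PEG10, -1.72 for CRIM1, -1.41 for SLC22A23 and -1.36 for SPTAN1.

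Single libraries far from the other 3 shRNA-CHD9 libraries of their line, by Dixon's test at the 95% level, were found in 13 of 215 groups of 4 libraries, where chance gives about 1 in 20. SNB19 shRNA-CHD9#2 replicate 2 accounted for 5 of them, the library with more CHD9 left than the other 3: CHD6 at 272 CPM, DTNA at 81.0 CPM, LASP1 at 775 CPM, SLC16A3 at 273 CPM and NFIB at 253 CPM. In K562 shRNA-CHD9#2 replicate 1 there were 4, KYNU at 13.6 CPM, ARHGAP24 at 26.8 CPM, IDI1 at 139 CPM and DDIT4 at 945 CPM. The others were APLNR at 18.1 CPM in K562 shRNA-CHD9#2 replicate 2, EZH2 at 325 CPM in K562 shRNA-CHD9#1 replicate 1, TTYH1 at 12.4 CPM in SNB19 shRNA-CHD9#1 replicate 2 and NDUFS6 at 289 CPM in SNB19 shRNA-CHD9#2 replicate 1.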

How the results depend on the processing

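Each of the 811 genes called for the difference kept its sign under DESeq2 size factors, TMM within each line and the DESeq2 Wald test. The same held with separate hairpin groups, the replicate block, and without 1 library of each unequal pair, an alternative chosen after seeing the data. The genes were chosen in these same libraries, so a kept sign was likely beforehand and is no separate support. Of the 811 calls 749 were kept with hairpin 1 alone and 617 with hairpin 2 alone. Of the 132 opposite genes 126 and 91 were kept. With hairpin 1 alone 408 genes were lower in K562, 383 were opposite, 963 shared and 625 called in SNB19, and the CHD9 difference was 0.35 (adjusted p = 0.0468). With separate hairpin groups 276 were opposite and 728 shared. A mean of at least 10 counts in each line gave 592 calls in K562 and 151 in SNB19. Without the fold threshold 703 genes were lower in K562, 874 K562-specific, 241 SNB19-specific, 3150 called in K562 and 1213 in SNB19. Without 1 library of each unequal pair 377 were higher in K562, 74 opposite and 85 shared. Leaving out 1 library at a time gave 425 to 658 genes higher in K562, 136 to 232 lower, 32 to 194 opposite, 307 to 468 K562-specific, 26 to 95 SNB19-specific, 37 to 375 shared, 990 to 1471 called in K562 and 145 to 468 in SNB19, and a CHD9 difference of 0.12 to 0.56. The causes were not tested, apart from the smaller numbers of libraries and genes.

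With the experiment number as a replicate block there were 128 shared responses, 90 opposite, 538 higher and 181 lower in K562. Same-numbered libraries did not deviate together (correlations from -0.13 to 0.035), so the numbers were not taken to pair them.

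Of the single genes 8 changed the sign of the difference, CHD1 (-0.049) and CHD2 (-0.026) without 1 library of each unequal pair. APLNR gave -0.078 with TMM within each line, -0.91 with DESeq2 and -0.031 with hairpin 1, and -2.30 to 0.87 when 1 library was left out. ID2 gave 0.068 with hairpin 1. KIAA1147 gave 0.14 with hairpin 2 and -0.15 to 0.013 with 1 library left out. ST3GAL5 gave 0.71 with hairpin 2 and -0.24 to 0.093 with 1 library left out. CLDN4 gave -0.055 with hairpin 1, -0.32 without 1 library of each unequal pair and -0.079 to 1.65 with 1 library left out, and ELF3 -0.045 to 0.41 with 1 library left out. None of these 8 passed its test in the main comparison. Over all named genes 2337 alternative values kept direction and call, 39 newly passed, 97 no longer passed and 19 changed sign. Depth limits the genes under 1 CPM, where a K562 control held 10 counts or fewer.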

Other observations

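Genes of the mitochondrial genome, chosen after the values of MT-CO1 were seen, responded mainly in K562. Of the 13 protein-coding genes 8 fell and 2 rose in K562 at an adjusted p under 0.05 in edgeR's test, and 3 rose in SNB19. Among all genes tested 12.4% fell and 17.1% rose in K562 at that rule, and 5.74% rose in SNB19. The median log2 fold change was -0.44 in K562 and 0.15 in SNB19. The response was lower in K562 in 9 genes and higher in 1, against 6.59% lower and 8.41% higher among all genes tested. These counts were not repeated with libraries left out. Beside MT-CO1 the genes that fell furthest in K562 were MT-ATP8, a subunit of ATP synthase, at -0.75 (SE 0.096, adjusted p = 2.28e-05), MT-ATP6 at -0.75 and MT-CO2 at -0.71 on the log2 scale. MT-ND6, which encodes a complex I subunit and is the one protein-coding gene on the light strand of the mitochondrial genome, rose in K562 by 0.91 (SE 0.098, adjusted p = 7.55e-06), and MT-ND5 rose by 0.60. The ribosomal RNA MT-RNR1 rose in both lines, by 0.78 and 0.64, whereas MT-RNR2 rose in SNB19 by 0.57 and had a value of -0.093 in K562 (adjusted p = 0.560). Mitochondrial genes have copies in the nuclear genome that can share reads, and without knowledge of strand in the counting the reads of MT-ND6 and MT-ND5, whose genes overlap at their ends on opposite strands, cannot be told apart where they overlap.

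By chromosome, the share of tested genes called higher in K562 was 0.932% on chromosome 16, which holds CHD9, with 4 of 429 genes, against 5.62% over all genes, and 9.74% on chromosome 4 with 41 of 421. Genes called lower in K562 made up 2.33% on chromosome 16, with 10 genes. These chromosomes were chosen after their values were seen, the shares were not tested, and both lines carry rearranged chromosomes.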
